A study of Homo sapiens with 6 samples.

Results

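The surface markers of ovarian cancer stem cells described here are 9 genes, CD44, CD24, PROM1, KIT, LGR5, LGR6, CD9, THY1 and ENPP1. Some are in wide use for sorting and others less so, and further markers such as EPCAM are given with the related genes. They were chosen by name, whether or not their transcripts were found, and all 9 were among the 58735 entries of the expression table. RNA sequencing had been performed on SKOV3, a long-established line of human ovarian cancer cells, in 2 culture states with 3 libraries each. Floating spheres (FS), titled stem cells in the labels, were formed without serum in low-attachment plates in DMEM/F12 with B27, to which the methods of the study add EGF, bFGF and insulin. Sphere-differentiated cells (SDC), titled adherent cells, came from such spheres returned to DMEM with fetal bovine serum, where they attached. The SDC libraries are therefore not the parental monolayer, and state, medium, serum and attachment cannot be told apart. All libraries come from 1 cell line.

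Cancer stem cells are defined by what they do, namely self-renewal, sphere growth and tumor initiation, and surface proteins serve as handles to enrich them. CD44 binds hyaluronan in the matrix around cells, CD24 is a small mucin-like protein held to the membrane by a GPI (glycosylphosphatidylinositol) lipid anchor, and cells with CD44 and without CD24 have been sorted as stem-like cells in breast cancer. In ovarian cancer, CD44 together with the receptor kinase KIT (CD117), prominin 1 (PROM1, CD133) and CD24 have each been used for sorting, while LGR5 and LGR6 are known as R-spondin receptors of epithelial stem cells.

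The 9 markers fell into 3 groups by level. CD9, CD44 and CD24 were plainly expressed, LGR6 and ENPP1 were low, and PROM1, LGR5, KIT and THY1 were at or near 0. Levels are given as FPKM, fragments per kilobase of exon scaled between libraries. The length is that of all annotated exons of a gene merged, so comparisons of level between genes depend on it and are rough. Among the 4 markers that reached a mean of 0.5 FPKM and were tested, CD44 and LGR6 were higher in FS and CD24 was lower, while CD9 was not called. The test was limma on log2(FPKM + 0.5) over 15719 genes, with p-values adjusted by Benjamini and Hochberg and a threshold of 0.05. The background was high, since 15.8% of all tested genes were called higher in FS, 17.8% were called lower, and 33.6% were called in either direction. The call of 3 of 4 tested markers has to be read against that share. LGR6 passed the filter only through FS, with means of 1.34 FPKM in FS and 0.422 FPKM in SDC. Its call and that count therefore also depend on the filter. With 3 against 3 libraries the smallest two-sided exact permutation p is 0.1, and the labels do not say whether libraries came from separate cultures, so the p-values measure the spread between these libraries.

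**Figure D1:**
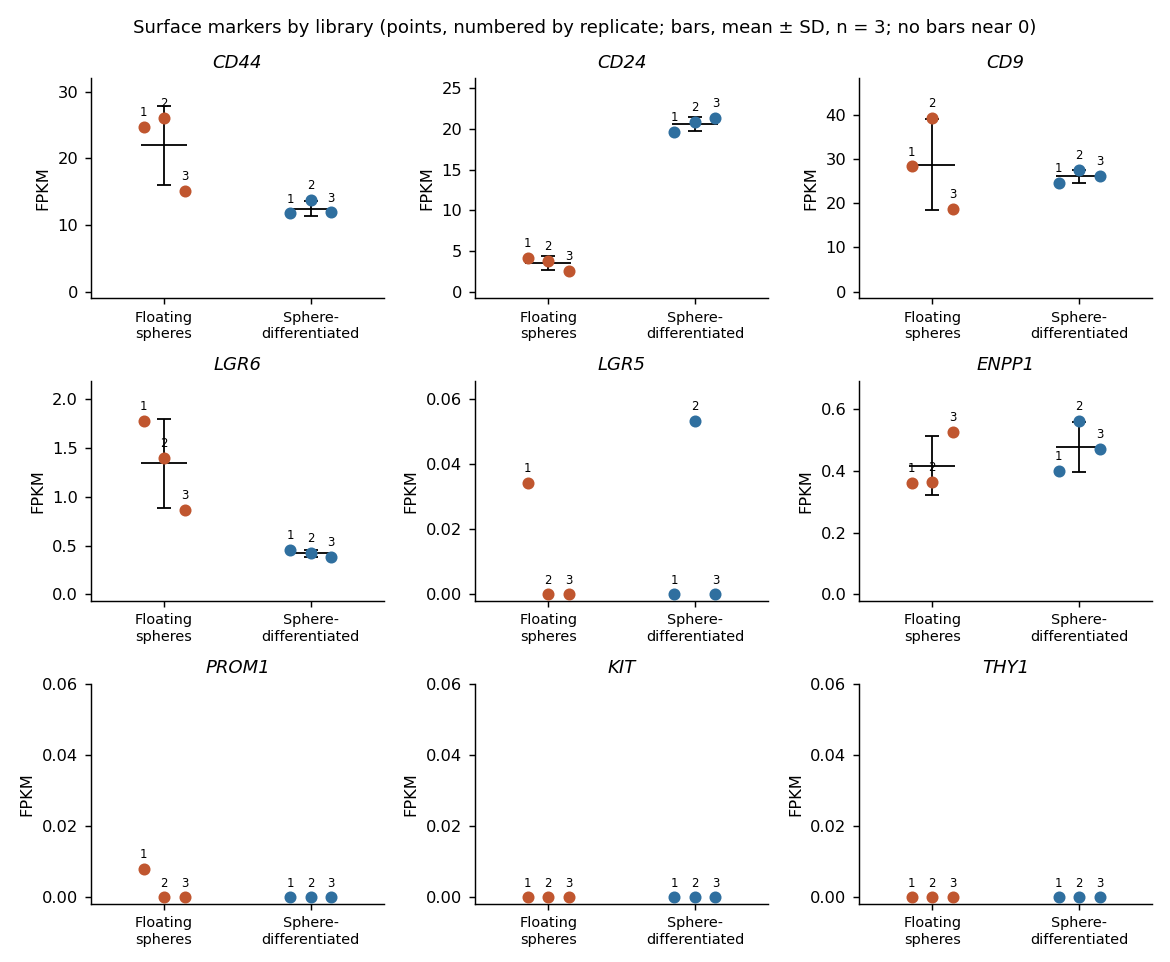
FPKM of each marker (y axis, linear and scaled per panel) in the 3 floating sphere libraries and the 3 sphere-differentiated libraries (x axis). Points are libraries numbered by replicate, and bars are the mean ± SD (n = 3), drawn only where a value exceeds 0.1 FPKM. CD24 sits between 2.51 and 4.12 FPKM in floating spheres and between 19.6 and 21.3 FPKM in sphere-differentiated cells, and KIT and THY1 are listed at 0 throughout.

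CD24 showed the largest change of the 4 tested markers. Its gene lies on the minus strand of chr6:106969831-106975627 (hg38, GENCODE release 29), and its protein is so short that the coding sequence has only 243 bases. Processed copies of this gene lie elsewhere in the genome, and reads from a near-identical copy could be assigned wrongly. The coding sequence, shared by 3 annotated transcripts and spread over exons between 106971661 and 106974646 on chromosome 6, is therefore shown beside the pseudogene CD24P2 on the plus strand of chr15:56071421-56071639, with the 14 aligned bases at which they differ in capitals and inserted or missing bases unmarked.
CD24: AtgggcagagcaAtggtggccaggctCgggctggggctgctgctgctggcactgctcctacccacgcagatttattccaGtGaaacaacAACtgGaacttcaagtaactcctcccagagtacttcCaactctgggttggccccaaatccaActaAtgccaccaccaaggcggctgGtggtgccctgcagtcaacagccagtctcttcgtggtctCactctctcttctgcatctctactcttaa
CD24P2: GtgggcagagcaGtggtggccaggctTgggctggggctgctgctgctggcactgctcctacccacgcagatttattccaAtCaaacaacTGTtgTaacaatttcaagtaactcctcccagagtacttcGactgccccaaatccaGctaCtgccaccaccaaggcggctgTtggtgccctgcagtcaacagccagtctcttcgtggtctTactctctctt
CD24P2 matched 202 of 216 aligned bases, a 93.5% identity, and the copy CD24P1 matched 189 of 222, or 85.1%. The copy CD24P4, whose sequence is not shown, was the nearest of the 3 and matched 241 of 243 bases (99.2%). The 3 copies together held between 0 and 4 recovered fragments per library, at most 0.524% of the fragments assigned to CD24. Reads of a copy that had been assigned to CD24 itself would not be seen in these values.

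CD24 had 4.12, 3.78 and 2.51 FPKM in FS replicates 1, 2 and 3, against 19.6, 20.9 and 21.3 FPKM in SDC replicates 1, 2 and 3. Every FS library lay far below every SDC library, and the spread within each state was small beside the gap. The mean was 3.47 ± 0.851 FPKM in FS and 20.6 ± 0.874 FPKM in SDC (SD, n = 3 each), so that SDC had 5.94 times the FS level. The log2 fold change was −2.43 with an SE of 0.18 and an adjusted p of 4.3e-04 in limma. CD24 was called lower in FS in all 19 alternative settings, with log2 fold changes between −2.57 and −2.25. The values rest on 132 to 214 fragments per library in FS and 927 to 1087 in SDC. In rank, CD24 stood above 58.5% of the 19862 protein-coding genes in FS and above 88.7% of them in SDC. The study also followed CD24 by qPCR, as a stemness-associated gene, in SKOV3 cells with OTUD1 removed or added. That comparison is not covered by these libraries.

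CD44, the hyaluronan receptor, went the other way with a smaller change. The gene lies on the plus strand of chr11:35138870-35232402 and has 39 annotated transcripts, which the gene-level values do not separate, so standard and variant CD44 cannot be compared here. CD44 had 24.7, 26.0 and 15.1 FPKM in FS replicates 1 to 3, against 11.7, 13.7 and 11.9 FPKM in SDC replicates 1 to 3. The lowest FS library, replicate 3, was above the highest SDC library by a narrow margin, and the other FS libraries were well above it. The mean was 22.0 ± 5.95 FPKM in FS and 12.4 ± 1.10 FPKM in SDC (SD, n = 3 each), a ratio of 1.76. The log2 fold change was 0.76 with an SE of 0.22 and an adjusted p of 0.0323 in limma.

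The CD44 call was lost in most fits that left out 1 library, although its direction held. Without FS replicate 1 the log2 fold change was 0.66 with an adjusted p of 0.0743 in limma, and without FS replicate 2 it was 0.62 with an adjusted p of 0.0708. Without SDC replicates 1, 2 or 3 in turn it was 0.72, 0.83 and 0.73, with adjusted p of 0.0957, 0.0727 and 0.105 in limma. Leaving out FS replicate 3, the lowest of its state, gave 1.00 with an adjusted p of 0.0073. Over all tested genes, 2487 were called higher with all libraries. Without SDC replicates 1, 2 and 3 in turn that number was 1711, 1424 and 1352. Without FS replicates 1, 2 and 3 in turn it was 2476, 2479 and 2200. CD44 was among the genes with which the study checked its culture states by qPCR, so its direction is not independent of how those states were judged. Of its merged exons, 84 of 10004 bases overlap the antisense gene CD44-AS1, which had 0 to 8 fragments per library against 1857 to 4246 for CD44, and the strand setting of the counting is not given in the sources used here.

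CD44 and CD24 changed places in the order of FPKM. In FS, CD9 and CD44 led with overlapping libraries, and CD24 followed below both. In SDC, CD9 led, CD24 came next and CD44 was below it, with no overlap between these neighbours. The ratio of CD44 to CD24 within a library, which does not depend on how libraries are scaled, was 5.99, 6.88 and 6.03 in FS replicates 1 to 3, against 0.597, 0.657 and 0.558 in SDC replicates 1 to 3. In FPKM, all FS libraries had several times more CD44 than CD24, and all SDC libraries had less. This order rests on merged exon lengths of 10004 bases for CD44 and 3097 for CD24. In fragments, CD44 exceeded CD24 in SDC too, at 1857 to 1966 per library against 927 to 1087. The change of the ratio between the states does not depend on these lengths. The mean ratio was 6.30 ± 0.503 in FS and 0.604 ± 0.0498 in SDC (SD, n = 3 each), a 10.4-fold difference. FS replicate 3, which was lowest for both genes, had a ratio like that of the other FS libraries. These are bulk RNA values, in which fewer cells of a type and less RNA per cell cannot be told apart, so they do not give the share of cells with CD44 and without CD24.

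**Figure D2:**
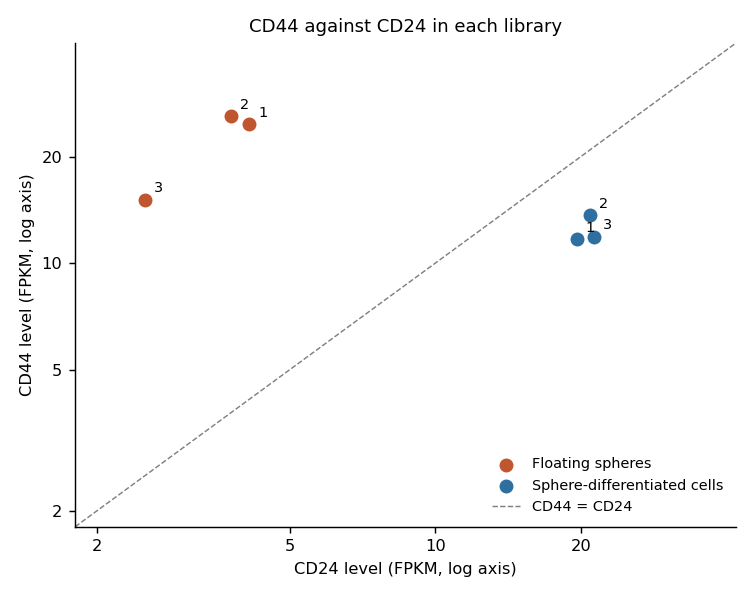
CD44 level against CD24 level in each of the 6 libraries, both in FPKM on log axes, with points numbered by replicate and a dashed line where both levels are equal. The 3 floating sphere libraries lie above the line with ratios of 5.99 to 6.88, and the 3 sphere-differentiated libraries lie below it with ratios of 0.558 to 0.657.

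LGR6 was the only one of the R-spondin receptors LGR5 and LGR6 with more than a few fragments. R-spondins bind these receptors and thereby remove the ubiquitin ligases ZNRF3 and RNF43 from the membrane, which leaves more Wnt receptor at the surface. LGR6, on the plus strand of chr1:202193901-202319781, had 1.77, 1.39 and 0.860 FPKM in FS replicates 1 to 3, against 0.455, 0.426 and 0.384 FPKM in SDC replicates 1 to 3. All FS libraries were above all SDC libraries, and FS replicate 3 was again the lowest of its state. The mean was 1.34 ± 0.457 FPKM in FS and 0.422 ± 0.0353 FPKM in SDC (SD, n = 3 each), a ratio of 3.18. The values rest on 136, 104 and 67 fragments in FS and on 33, 28 and 29 fragments in SDC. FS replicate 3 had a two-sided 95% exact Poisson interval of 51.9 to 85.1 fragments and SDC replicate 1 one of 22.7 to 46.3, which cover counting error only. The log2 fold change on FPKM + 0.5 was 0.97 with an SE of 0.26 and an adjusted p of 0.0247 in limma.

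At this low level the size of the LGR6 change depended on the pseudocount and the scaling. On the log2 scale it was 1.41 with a pseudocount of 0.1 FPKM, 0.70 with a pseudocount of 1 FPKM and 0.85 after quantile normalization. It was 1.64 in limma voom on the recovered fragments, with an adjusted p of 0.0080. The LGR6 call was lost without FS replicates 1 or 2, with log2 fold changes of 0.80 and 0.93 and adjusted p of 0.0621 and 0.0520 in limma. It was also lost without SDC replicates 1, 2 or 3, with log2 fold changes of 0.99, 0.97 and 0.94 and adjusted p of 0.0645, 0.0721 and 0.0845 in limma. Without FS replicate 3 the log2 fold change was 1.17 with an adjusted p of 0.0176.

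LGR6 and CD24 changed in opposite directions, by the largest ratios among the tested markers, and the 250 bases before their most upstream RefSeq start (GRCh38.p14) are shown to set their promoters side by side. They lie at chr1:202193549-202193798 on the plus strand for LGR6 and at chr6:106975628-106975877 on the minus strand for CD24, outside the GENCODE exons of either gene, and capitals mark any of the motifs searched for.
LGR6: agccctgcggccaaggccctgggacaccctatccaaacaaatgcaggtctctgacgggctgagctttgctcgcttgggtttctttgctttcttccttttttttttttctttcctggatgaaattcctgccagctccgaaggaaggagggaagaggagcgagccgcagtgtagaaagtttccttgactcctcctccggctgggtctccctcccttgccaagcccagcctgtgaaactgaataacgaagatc
CD24: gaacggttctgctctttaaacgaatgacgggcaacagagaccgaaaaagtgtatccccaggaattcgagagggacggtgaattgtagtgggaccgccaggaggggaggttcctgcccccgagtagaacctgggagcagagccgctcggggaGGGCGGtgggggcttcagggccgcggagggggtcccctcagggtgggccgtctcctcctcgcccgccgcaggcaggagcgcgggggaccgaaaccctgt
Both strands were searched for 4 motifs, none of which contains another. The GC box was searched as GGGCGG and the TATA-box motif as TATAAA. The AP-1 site of the Fos and Jun factors was searched as TGANTCA, where N is any base. The hypoxia response core was searched as ACGTG. The CD24 window held 1 GC box, and the LGR6 window held none of the 4 motifs. Of 35116 RefSeq promoter windows of the same length, 42.6% held a GC box, 10.7% a TATA box, 6.57% an AP-1 site and 18.5% the hypoxia response core, so a match says little about a single gene. The GC content was 53.2% in the LGR6 window and 65.6% in the CD24 window, around a median of 58.0% over all windows. The start that the cells used was not measured.

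CD9, a tetraspanin that organizes other membrane proteins such as integrins, had the highest mean FPKM of the markers in both states. Its gene lies on the plus strand of chr12:6199715-6238271. CD9 had 28.4, 39.3 and 18.7 FPKM in FS replicates 1 to 3, against 24.5, 27.6 and 26.1 FPKM in SDC replicates 1 to 3. The states overlapped, with the highest and the lowest of all libraries both in FS. The mean was 28.8 ± 10.3 FPKM in FS and 26.1 ± 1.52 FPKM in SDC (SD, n = 3 each). The log2 fold change was 0.08 with a 95% confidence interval of −0.51 to 0.67 and an adjusted p of 0.837 in limma, so a change of the size of CD24 lies outside the interval and a change of moderate size in either direction lies inside it. Its sign rested on FS replicate 2, without which it was −0.17 with an adjusted p of 0.512.

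ENPP1, a membrane enzyme that cleaves extracellular ATP and the messenger cGAMP, was just below the level needed for a test, with a mean of 0.446 FPKM over the 6 libraries. On the plus strand of chr6:131808016-131895155, it had 0.359, 0.363 and 0.526 FPKM in FS replicates 1 to 3, against 0.399, 0.560 and 0.470 FPKM in SDC replicates 1 to 3. The libraries of the states were interleaved, and FS replicate 3, the lowest of its state for the 4 tested markers, was the highest for ENPP1. The mean was 0.416 ± 0.0951 FPKM in FS and 0.476 ± 0.0805 FPKM in SDC (SD, n = 3 each), from 59 to 89 fragments per library. The log2 difference was −0.09, with an SE of 0.18 and an adjusted p of 0.766 in limma where no filter on low values was used.

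The other 4 markers were hardly found or not found. PROM1, the pentaspan protein known as CD133, on the minus strand of chr4:15963076-16084378, had 1 fragment in FS replicate 1 (0.0080 FPKM) and 0 in the other libraries. In other SKOV3 experiments the study measured CD133-positive cells by flow cytometry and the CD133 transcript by qPCR. Neither protein nor those cultures are covered by these libraries. LGR5, on the plus strand of chr12:71439770-71586310, had 3 fragments in FS replicate 1 (0.0341 FPKM) and 4 in SDC replicate 2 (0.0531 FPKM), with 0 in the other 4 libraries. KIT, the receptor of stem cell factor, on the plus strand of chr4:54657918-54740715, and THY1 (CD90), a GPI-anchored protein, on the minus strand of chr11:119417378-119424985, were listed at 0 in all 6 libraries.

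A count of 0 allows up to 3 fragments per library (the one-sided 95% limit, for counting error only), which is 0.0317 to 0.0376 FPKM for KIT, 0.0298 to 0.0353 FPKM for THY1 and, in the 5 libraries at 0, 0.0238 to 0.0281 FPKM for PROM1. At this depth a difference between the states was not detectable for these 4 genes, and no fold change is given. Overlapping exons cannot hide most of their length, since 166 of 7434 PROM1 bases, 208 of 5251 LGR5 bases, 632 of 5925 THY1 bases and 0 of 5563 KIT bases were shared with another gene.

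Within FS, replicate 3 stood lowest for each of the 4 tested markers. FS replicate 3 was the lowest FS library for CD44, CD24, LGR6 and CD9, by 0.48, 0.38, 0.40 and 0.55 below the FS mean on the log2(FPKM + 0.5) scale. Median-of-ratios scaling left fold changes and SE unchanged, so the deposited values already held such a scaling. The small deviation of the median gene of that library, 0.0045, follows from it. The same library was the lowest of FS for 27.5% of all tested genes. Their coefficients of variation were 27.1%, 24.5%, 34.1% and 35.8% in FS for CD44, CD24, LGR6 and CD9, against 8.82%, 4.24%, 8.37% and 5.83% in SDC. The FS libraries varied more than the SDC libraries for each of these genes, as they did for 71.5% of all tested genes. Over all 15719 tested genes, the states did not overlap in 51.6%, and they did not overlap for 3 of the 4 tested markers.

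**Figure D3:**
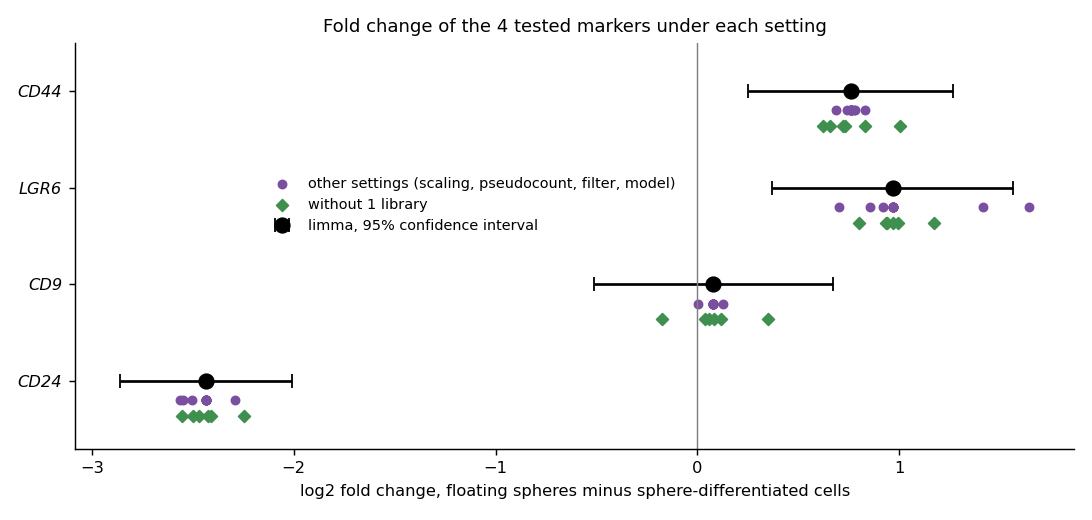
Log2 fold change (x axis, floating spheres minus sphere-differentiated cells) of the 4 tested markers. Black points with bars are the limma estimates with 95% confidence intervals, purple points are other settings of scaling, pseudocount, filter or model, and green diamonds leave out 1 library each. CD24 stays between −2.57 and −2.25, CD44 and LGR6 stay above 0, and CD9 lies on both sides of 0, between −0.17 and 0.35.

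The genes whose pattern was most like that of each tested marker were found by the root-mean-square difference of mean-centred log2(FPKM + 0.5) values over the 6 libraries, among 11756 tested protein-coding genes. For CD44 they were MCEE (0.0818) and EHD3 (0.102), for CD24 they were EDN1 (0.0756) and ANXA3 (0.121), for LGR6 CTSA (0.0540) and CSTF3 (0.0679), and for CD9 RPL23 (0.0492) and NGLY1 (0.0512). EDN1, which encodes endothelin 1, had 0.205, 0.121 and 0 FPKM in FS replicates 1 to 3, against 2.36, 2.78 and 2.96 FPKM in SDC replicates 1 to 3. CTSA, a lysosomal carboxypeptidase, had 43.4, 37.6 and 28.6 FPKM in FS, against 19.3, 18.0 and 18.5 FPKM in SDC, far above LGR6 in level. The 0.5 FPKM added before the log shrinks the changes of low genes. EDN1 in every FS library and LGR6 in every SDC library lay below that value. Likeness to or of these genes therefore does not mean an equal ratio of FPKM between the states. With 6 libraries many genes share such a pattern, so likeness is a description only.

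Around CD44, the list of hyaluronan genes and CD44 partners had 11 of 19 genes tested, of which 2 were higher in FS, 1 was lower and 8 were not called, with a median log2 fold change of 0.13 beside 0.0032 over all tested genes. The synthases of its ligand were present in both states, HAS2 at 2.16 ± 0.874 FPKM in FS and 1.68 ± 0.220 FPKM in SDC (adjusted p = 0.515 in limma) and HAS3 at 2.03 ± 0.740 FPKM in FS and 1.71 ± 0.169 FPKM in SDC (adjusted p = 0.623 in limma). HYAL2, a GPI-anchored hyaluronidase, was higher, at 7.70 ± 0.532 FPKM in FS and 3.23 ± 0.124 FPKM in SDC, with a log2 fold change of 1.13 (adjusted p = 0.0014 in limma). Among the proteins that tie CD44 to the actin cortex, moesin (MSN) was higher in FS with a log2 fold change of 0.63 and ezrin (EZR) was lower with −0.90 (adjusted p = 0.0109 and 0.0036 in limma). The ratio of MSN to EZR was 1.58 ± 0.121 in FS and 0.548 ± 0.0237 in SDC (SD, n = 3 each), so that their order in FPKM turned round. Osteopontin (SPP1), another CD44 ligand, was at most 0.0254 FPKM.

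The list of CD44 shedding and splicing genes had 13 of 14 genes tested, with 2 higher, 5 lower and 6 not called and a median log2 fold change of −0.17. Of the proteases that cleave CD44 outside the membrane, ADAM17 was lower at 4.61 ± 1.29 FPKM in FS and 9.30 ± 0.879 FPKM in SDC, with a log2 fold change of −0.97 (adjusted p = 0.0103 in limma). ADAM10 was 11.4 ± 0.830 FPKM in FS and 9.06 ± 1.21 FPKM in SDC, and MMP14 was 71.9 ± 15.0 FPKM in FS and 52.1 ± 5.09 FPKM in SDC, neither of them called (adjusted p = 0.123 and 0.0945 in limma). The epithelial splicing factors ESRP1 and ESRP2, which in epithelial cells favour variant exons of CD44, were both lower. ESRP1 had 0.196, 0.428 and 0.338 FPKM in FS replicates 1 to 3, against 1.40, 1.37 and 1.66 FPKM in SDC replicates 1 to 3, with a log2 fold change of −1.28 (adjusted p = 0.0060 in limma). ESRP2 had 5.63, 2.99 and 1.88 FPKM in FS, against 14.1, 11.7 and 13.0 FPKM in SDC, with a log2 fold change of −1.85 (adjusted p = 0.0055 in limma). PSEN2, a catalytic subunit of gamma-secretase, which cuts CD44 within the membrane, was also lower, with a log2 fold change of −0.89 (adjusted p = 0.0311 in limma). The gamma-secretase subunits NCSTN and APH1A were called higher with 0.41 and 0.45 (adjusted p = 0.0356 and 0.0322 in limma), so the subunits named did not share a direction. Whether CD44 splicing itself differed was not measured.

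**Figure D4:**
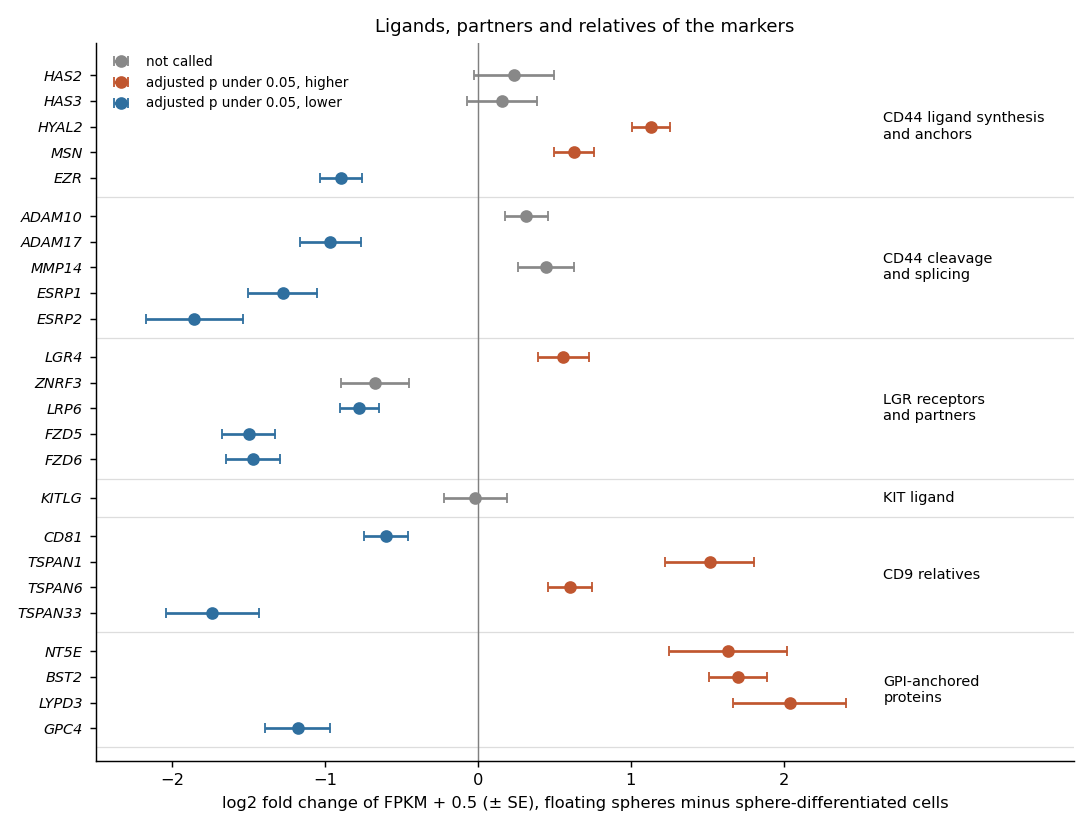
Log2 fold change ± SE (x axis, log2 of FPKM + 0.5, floating spheres minus sphere-differentiated cells) of ligand, partner and related genes of the markers, grouped by role. Red points were called higher and blue points lower at an adjusted p under 0.05 in limma, and grey points were not called. The receptor LGR4 lies at 0.56 while the Wnt receptors FZD5 and FZD6 lie at −1.50 and −1.47.

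In the R-spondin and LGR list, 13 of 20 genes were tested, of which 1 was higher, 4 were lower and 8 were not called, with a median log2 fold change of −0.40. LGR4, the third receptor of this family, was above LGR6 in FPKM in every library. LGR4 had 3.59, 4.89 and 3.78 FPKM in FS replicates 1 to 3, against 2.27, 2.84 and 2.69 FPKM in SDC replicates 1 to 3, with a log2 fold change of 0.56 (adjusted p = 0.0367 in limma). LGR4 exceeded LGR6 by a factor of 2.03, 3.52 and 4.39 in FS replicates 1 to 3, against a factor of at least 4.99 in each SDC library. The ligands were nearly absent, with RSPO1 at most 0.258 FPKM, RSPO3 at most 0.263 FPKM, RSPO4 at most 0.0772 FPKM and RSPO2 listed at 0 in all libraries. The ligase ZNRF3 was 3.01 ± 0.948 FPKM in FS and 4.94 ± 0.303 FPKM in SDC (adjusted p = 0.0526 in limma), and RNF43 was at most 0.0926 FPKM. Of the Wnt receptors, FZD5, FZD6, FZD10 and LRP6 were lower in FS, with log2 fold changes of −1.50, −1.47, −1.12 and −0.77.

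The ligand of the undetected KIT was expressed without a detectable difference. KITLG, stem cell factor, had 5.06, 3.20 and 3.00 FPKM in FS replicates 1 to 3, against 3.28, 4.03 and 3.85 FPKM in SDC replicates 1 to 3, with overlapping states and a log2 fold change of −0.02 with an SE of 0.21 (adjusted p = 0.960 in limma). In the list of KIT ligand, related receptors and their signalling proteins, 1 of 10 tested genes was higher and 5 were lower. The adaptor SHC1 was higher with a log2 fold change of 1.40, and the phosphatase PTPN11, the kinase LYN and the ubiquitin ligase CBL were lower with −1.05, −0.94 and −0.53. These proteins serve many receptors.

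CD9 stood among tetraspanins that moved both ways. Of 22 tested genes of tetraspanins and CD9 partners, 5 were higher, 4 were lower and 13 were not called, with a median log2 fold change of 0.15. CD81, a close relative of CD9, had 23.3, 28.4 and 29.1 FPKM in FS replicates 1 to 3, against 44.8, 40.0 and 38.1 FPKM in SDC replicates 1 to 3, so that the states did not overlap. The log2 fold change of CD81 was −0.60 with an adjusted p of 0.0181 in limma. TSPAN1 and TSPAN6 were higher, with log2 fold changes of 1.52 and 0.60. TSPAN33 and the integrin subunit ITGA6 were lower, with log2 fold changes of −1.74 and −0.78.

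CD24 and THY1 are held in the membrane by GPI anchors. Of 17 tested genes of GPI-anchored surface proteins, 7 were higher in FS, 1 was lower and 9 were not called, with a median log2 fold change of 0.42. BST2, an antiviral tether of virions, was the most abundant of those called, with 307, 230 and 251 FPKM in FS replicates 1 to 3, against 92.5, 65.6 and 84.2 FPKM in SDC replicates 1 to 3 and a log2 fold change of 1.70. LYPD3, a member of the Ly6/uPAR family, and TFPI, an inhibitor of coagulation, were higher with log2 fold changes of 2.04 and 1.12. The glypican GPC4 was lower with −1.18. Of 23 tested genes of anchor synthesis and attachment, 6 were higher and 3 were lower, among them PIGV, PIGT and PIGS with log2 fold changes of 1.07, 0.92 and 0.83 and PIGC with −0.71. SIGLEC10, a receptor for CD24 on immune cells, was at most 0.546 FPKM, and PROM2, the relative of PROM1, was at most 0.273 FPKM.

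Around ENPP1, 12 of 22 genes for the family and for extracellular nucleotides were tested, with 2 higher, 3 lower and 7 not called and a median log2 fold change of 0.36. ENPP2 was at most 0.0375 FPKM. NT5E (CD73), which makes adenosine from the AMP that ENPP1 releases, had 6.58, 19.7 and 6.67 FPKM in FS replicates 1 to 3, against 2.54, 2.83 and 2.88 FPKM in SDC replicates 1 to 3. FS replicate 2 was far above the other FS libraries, and all FS libraries were above all SDC libraries (log2 fold change 1.64, adjusted p = 0.0167 in limma). The sensor CGAS, which makes cGAMP, was lower with a log2 fold change of −0.85, and its receptor STING (TMEM173) was higher with 1.29. The adenosine receptor ADORA2B and the pyrophosphate transporter ANKH were lower with −0.92 and −0.80.

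Other markers in use for cancer stem cells did not share a direction, with 4 of 16 tested genes higher in FS, 6 lower and 6 not called and a median log2 fold change of −0.27. EPCAM, an epithelial adhesion protein, had 1.02, 0.584 and 1.05 FPKM in FS replicates 1 to 3, against 6.19, 6.31 and 7.02 FPKM in SDC replicates 1 to 3. Its log2 fold change of −2.36 (adjusted p = 5.0e-04 in limma) was close in size to that of CD24. L1CAM and NOTCH1 were lower with −1.91 and −1.20, and the intermediate filament nestin (NES) was higher with 1.56. Besides CD44, the qPCR check of the study covered NOTCH1, NANOG, POU5F1 (OCT4) and SOX2, and the study reported these genes as high in floating spheres. In the sequencing values NOTCH1 went the other way, at 5.52 ± 0.568 FPKM in FS and 13.3 ± 0.349 FPKM in SDC (adjusted p = 0.0013 in limma). POU5F1, which has processed pseudogenes that can share its reads, had 6.45, 13.0 and 4.61 FPKM in FS replicates 1 to 3, against 2.12, 1.76 and 1.32 FPKM in SDC replicates 1 to 3, and was called higher with a log2 fold change of 1.83 (adjusted p = 0.0076 in limma). NANOG was at most 0.0388 FPKM and SOX2 at most 0.101 FPKM in any library.

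Markers of other cell types were checked in the same libraries. Blood cell markers summed to 8.47 to 15.8 FPKM in FS and 8.18 to 11.4 FPKM in SDC, nearly all from CD14, while PTPRC, HBB and MS4A1 were at 0. Endothelial markers summed to 4.69 to 7.47 FPKM in FS and 2.39 to 3.12 FPKM in SDC, nearly all from PECAM1, while CDH5 and KDR were at 0. Fibroblast markers summed to 4.22 to 6.96 FPKM in FS and 2.74 to 3.06 FPKM in SDC, and COL1A2 was at most 0.0110 FPKM. Of the 20 genes in these 3 lists 5 were tested, and PECAM1 and COL3A1 were called higher in FS, with log2 fold changes of 0.99 and 0.86, and the part of other cells in the values of the surface markers was not tested. Of the 10 epithelial and ovarian cancer markers 8 were tested, of which 1 was higher in FS, 3 were lower and 4 were not called. The marker called higher was MSLN, at 21.7 ± 2.95 FPKM in FS and 12.5 ± 2.93 FPKM in SDC (SD, n = 3 each). Its log2 fold change was 0.79 (adjusted p = 0.0207 in limma). EPCAM, given above, was among those called lower. KRT7 was called lower with a log2 fold change of −2.19, at 275, 66.7 and 101 FPKM in FS replicates 1 to 3, against 605, 527 and 556 FPKM in SDC replicates 1 to 3. KRT18 was called lower with −1.07, at 53.4 ± 9.11 FPKM in FS and 112 ± 3.18 FPKM in SDC (SD, n = 3 each). KRT8 was not called, KRT19 was at most 3.22 FPKM in FS and at 0 in SDC, MUC16 was at most 0.0499 FPKM and WT1 was at 0. ERBB2, known to be amplified in SKOV3, was at a moderate level of 8.39 ± 1.59 FPKM in FS and 9.38 ± 1.19 FPKM in SDC, above 74.0% of the protein-coding genes in FS and 75.5% in SDC. The labels name SKOV3, and the methods of the study report STR profiling of its lines. The identity of the line was not tested from these values. Recovered fragments numbered 15877501 to 16376331 per library in FS and 14725462 to 16263136 in SDC, so depth was similar in both states.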

How the data were processed

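FPKM values per gene and library were computed and deposited by the authors. The submitters' processing notes name hg38, featureCounts 1.5.0-p3 and DESeq2 1.20.0, and the methods of the study name featureCounts and edgeR. The aligner, the release of the annotation and the setting for strand were not given in the sources used here. Groups were taken from the sample titles. Loci and exon lengths were taken from GENCODE release 29, and promoters from RefSeq GRCh38.p14.

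Log2(FPKM + 0.5) values of genes averaging 0.5 FPKM or more were fitted in limma (version 3.58.1, under R 4.3.3), with an intensity trend and group as the only term, all 6 libraries together, and Benjamini-Hochberg adjustment over 15719 genes. Since FPKM times exon length gave whole fragments within 0.01 for 100.0% of values above 0, fragments were recovered (96.2% to 103% of the totals that the FPKM values imply) and limma voom was run on them as an alternative. Other alternatives changed pseudocount, filter, scaling, moderation, gene types or threshold, added the replicate number, or left out each library. The scripts were tested on simulated data.

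The markers and gene lists were chosen with earlier results of these data known. The genes named were all 9 markers, the 2 genes most like each tested marker, the called genes of lowest adjusted p in each list (4 at most), and ligands, receptors and relatives set by name. CTSA and EDN1 were singled out, and NCSTN, APH1A, POU5F1, NANOG, SOX2 and the cell type markers named, after their values were seen. Deviations of libraries with the same replicate number correlated at −0.020, −0.074 and −0.040 across genes, so the numbers were not taken as pairs. Python with SciPy, Biopython and matplotlib was used for sequences, intervals and plots.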

Additional observations from a re-analysis of the deposited data

How the results depend on the processing

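The marker called lower in FS, CD24, was called in all 19 alternatives. The number of markers called higher, 2 as reported, was 0 with no filter on low values, where 31558 genes shared the adjustment and CD44 and LGR6 had adjusted p of 0.0730 and 0.0615 in limma, and 1 with a minimum mean of 5 FPKM, which LGR6 did not reach. Leaving out 1 library at a time, it ranged from 0 to 2, and was 2 only without FS replicate 3. CD44 and LGR6 were higher in FS in all of their 19 and 18 alternatives, losing the call in 6 each. Changes of filter, moderation, gene types or threshold and the replicate block cannot move these estimates, and median-of-ratios scaling did not. The direction could therefore differ only in the remaining settings. The log2 fold change of CD9 ranged from −0.17 without FS replicate 2, a reversed sign, to 0.35 without FS replicate 3, and was not called in any of its 19 alternatives. With the replicate block the counts of called markers were 2 higher and 1 lower as before, LGR6 had an adjusted p of 0.0497, and over all genes 1994 were called higher and 2094 lower in place of 2487 and 2792. With a minimum mean of 5 FPKM, 1478 of the 7766 genes then tested were called higher, beside 2487 of 15719 in the main fit. Over all genes, leaving out 1 library gave 1352 to 2479 higher and 1454 to 2861 lower. No scaling moved the median gene by more than 0.07 on the log2 scale (−0.07 for TPM). Depth limits statements on PROM1, LGR5, KIT and THY1, which had at most 4 fragments per library, and 3 libraries per state limit those on CD44, LGR6 and CD9.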
